A study of Homo sapiens with 18 samples.

Results

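Mitosis and chromosome segregation are carried out by a set of genes that dividing cells switch on together late in the cell cycle. Their level was followed here in RNA sequencing of cultured human cancer cell lines treated with H3B-8800, a small molecule that binds the SF3b splicing complex through SF3B1. The 53 genes described were chosen by name, as a list of mitotic genes, out of 20263 genes in the deposited table. The choice was made with earlier results of these data known, so comparisons with all genes are descriptive. All 53 were found and all 53 passed the filter on low counts, as did 14234 genes in all. The list holds 10 kinesin motors, 6 genes of the centromere and kinetochore, 5 of the spindle assembly checkpoint, 10 mitotic kinases, cyclins and phosphatases, 5 of anaphase promotion and cohesion, 7 of spindle assembly and microtubule binding, 4 of cytokinesis, and 6 of condensin and topoisomerase.

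The 18 libraries formed 6 groups of 3. Cells labelled MHCC-97H (liver cancer), MDA-MB-231 (breast cancer) and HCT-116 (colon cancer), all given as WT in genotype, received 20 nM H3B-8800 or DMSO, the solvent, for 24 h in medium with 10% serum. Separate cultures are not stated for the 3 replicates, so p-values measure only the spread between these samples, which may be technical. Each library totalled between 28232315 and 41488278 counts.

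The line labels were set against marker genes. Genes of intestinal epithelium such as KRT20 and VIL1 were at 0 CPM (read counts relative to the TMM-scaled size of the library) in all 6 libraries labelled MHCC-97H. The same list summed to between 1530 and 1640 CPM in the 12 other libraries, those labelled MDA-MB-231 included. CDX1, also in that list, was at 0 CPM in every library. Of 7 liver genes, only HNF4A reached 1 CPM under the MHCC-97H label, and the list summed to between 4.69 and 6.01 CPM there, against 184 to 243 CPM under the other labels. The 5 mesenchymal genes parted, with VIM at 1300 CPM in MHCC-97H libraries, against 18.7 CPM in MDA-MB-231 and 21.2 CPM in HCT-116 libraries, and FN1 at 141 CPM in MHCC-97H libraries, against 8300 CPM in MDA-MB-231 and 8770 CPM in HCT-116 libraries. The 5 epithelial genes parted too, with EPCAM at 17.8 CPM in MHCC-97H libraries, against 0.0166 CPM in MDA-MB-231 and 0.0775 CPM in HCT-116 libraries. CDH1, KRT19, KRT8 and KRT18 went the other way. KRT19 was at 0.0785 CPM in MHCC-97H libraries, against 772 CPM in MDA-MB-231 and 796 CPM in HCT-116 libraries. The breast and colon labels thus marked libraries with one marker profile, and groups are named by label throughout. Immune markers summed to at most 1.16 CPM in any library. In the mitotic genes, the H3B-8800 and DMSO libraries numbered 2 under the HCT-116 label stood apart from the other libraries of their groups, as described with the results they touch.

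At mitosis the condensins and topoisomerase II compact the chromosomes, kinesins and microtubule-binding proteins build the spindle, and kinetochores tie each chromosome to it. The spindle assembly checkpoint holds the anaphase-promoting complex back until every kinetochore is attached, after which the sister chromatids part and cytokinesis splits the cell. Many of these genes are repressed in quiescent cells and activated late in the cycle through a promoter element called CHR, with the letters TTTGAA, that is bound by the MuvB complex, often together with CCAAT boxes bound by NF-Y.

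Promoter windows, 250 bases before to 50 bases after the gene start, were matched in RefSeq (GRCh38.p14) for 47 of the 53 genes. TTTGAA was present on either strand in 33 of the 47 windows, or 70.2%, against 15.4% of 27305 genes with a window of the same length. CCAAT was present on either strand in 32 of the 47, or 68.1%, against 35.7% of all genes. Neither motif contains the other, and a match is a description of the sequence, not of binding. The windows of 5 genes that recur in the results are printed from 150 bases before the start to 30 bases after it, 5′ to 3′ on the gene's strand: ECT2 (chr3:172750576-172750755, plus strand), TOP2A (chr17:40417867-40418046, minus strand), NUSAP1 (chr15:41332731-41332910, plus strand), PLK1 (chr16:23678739-23678918, plus strand) and CDC20 (chr1:43358831-43359010, plus strand). ECT2, TOP2A and NUSAP1 were higher under H3B-8800 in the MHCC-97H libraries, while PLK1 and CDC20 were slightly lower; this choice was made after their values were seen. Capitals mark both motifs on either strand.

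ECT2: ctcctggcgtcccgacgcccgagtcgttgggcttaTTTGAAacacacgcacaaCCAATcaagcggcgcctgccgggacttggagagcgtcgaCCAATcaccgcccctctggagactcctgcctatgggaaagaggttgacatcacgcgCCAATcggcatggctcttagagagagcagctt
TOP2A: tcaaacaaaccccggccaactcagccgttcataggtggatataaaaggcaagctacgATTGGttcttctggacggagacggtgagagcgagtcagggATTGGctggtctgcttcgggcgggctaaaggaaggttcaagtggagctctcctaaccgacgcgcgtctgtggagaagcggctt
NUSAP1: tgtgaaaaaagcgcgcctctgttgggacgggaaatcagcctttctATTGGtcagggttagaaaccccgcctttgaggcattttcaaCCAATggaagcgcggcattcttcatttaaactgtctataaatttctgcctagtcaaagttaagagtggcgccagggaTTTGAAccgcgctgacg
PLK1: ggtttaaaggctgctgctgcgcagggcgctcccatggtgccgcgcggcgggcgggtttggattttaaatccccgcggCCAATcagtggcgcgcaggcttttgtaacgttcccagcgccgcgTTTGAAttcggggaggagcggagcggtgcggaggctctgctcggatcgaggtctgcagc
CDC20: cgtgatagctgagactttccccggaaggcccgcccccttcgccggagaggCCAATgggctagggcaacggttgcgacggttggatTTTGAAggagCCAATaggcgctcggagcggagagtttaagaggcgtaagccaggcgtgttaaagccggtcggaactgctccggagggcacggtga

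ECT2 held 3 CCAAT boxes and 1 TTTGAA in the printed stretch, and NUSAP1 and CDC20 held 2 and 1. PLK1 held 1 of each. TOP2A held 2 CCAAT boxes and no TTTGAA there, although its whole window held 2.

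The next question was where the genes stood without the drug. In DMSO libraries, 40 of the 53 mitotic genes were lower and 10 were higher under the MHCC-97H label than in the mean of the other labels (edgeR quasi-likelihood test, adjusted p under 0.05). Across all genes 84.6% were called in this comparison, 43.9% lower and 40.7% higher, so most genes of any kind passed the test here. Their median log2 difference was -0.84, against -0.08 over all genes tested. The libraries of the MHCC-97H label lay below all 6 other DMSO libraries for 39 genes and above them for 9, where 41.5% and 39.0% of all genes did so. Between MDA-MB-231 and HCT-116, DMSO libraries overlapped for 49 of 53 genes, where 90.2% of all genes overlapped. With library totals as scaling 43 genes were lower and 5 higher, where 50.4% of all genes were lower and 34.8% higher.

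ECT2, an exchange factor needed for cytokinesis, had the largest difference. It stood at 10.6, 8.45 and 9.27 CPM in MHCC-97H DMSO libraries, against 185, 157 and 163 CPM in MDA-MB-231 and 182, 142 and 172 CPM in HCT-116 DMSO libraries. The log2 difference was -4.14 (SE 0.13, edgeR adjusted p = 8.2e-14). CENPE, a kinetochore motor, differed by -3.57 (SE 0.30, edgeR adjusted p = 1.3e-08), CENPF, a large kinetochore protein, by -3.03 (SE 0.20, edgeR adjusted p = 8.6e-10) and ASPM, a spindle pole protein, by -2.89 (SE 0.18, edgeR adjusted p = 5.3e-10). All 4 are long genes of low GC content. Across the 53 genes the log2 difference ran with exonic length at a Spearman correlation of -0.59 and with GC content at 0.34. Across all 14223 annotated genes tested the values were -0.21 and 0.21. With the trend of each library on GC content and length taken out, the 53 genes had -0.46 and 0.12. The cause of this pattern was not tested.

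The genes that stood higher under the MHCC-97H label included the central kinase of mitosis. CDK1 averaged 215 ± 8.67 CPM in MHCC-97H DMSO libraries, against 80.8 ± 7.75 CPM in MDA-MB-231 and 83.2 ± 11.4 CPM in HCT-116 DMSO libraries (SD, n = 3 each), a log2 difference of 1.39 (SE 0.07, edgeR adjusted p = 2.1e-11). PTTG1, the securin that inhibits separase, was higher by 1.32 (SE 0.06, edgeR adjusted p = 2.3e-12). MAD2L1, a checkpoint protein, was higher by 0.89 (SE 0.08, edgeR adjusted p = 5.2e-08) and KIF2C, a kinesin that depolymerises microtubules, by 0.69 (SE 0.04, edgeR adjusted p = 6.5e-11). All 4 were also called higher with library totals as scaling, at values from 0.42 (KIF2C) to 1.12 (CDK1).

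Per kilobase of exon, which lets genes be compared only roughly, the order of the levels differed between labels. Exon length here joins the exons of all annotated transcripts of a gene, so it can exceed the length of the transcripts present. In MHCC-97H DMSO libraries the highest levels were 124 CPM per kb for UBE2C, the ubiquitin-conjugating enzyme of the anaphase-promoting complex, 99.7 for TPX2, 73.8 for PTTG1 and 55.2 for CDC20. Under the MDA-MB-231 label the highest were 152 CPM per kb for TPX2, 102 for ANLN, 98.7 for UBE2C and 98.4 for TOP2A, and under the HCT-116 label 151 for TPX2, 103 for ANLN, 97.8 for UBE2C and 95.8 for TOP2A. CENPE had the lowest level under every label, at 0.156 CPM per kb for MHCC-97H, 2.02 for MDA-MB-231 and 1.73 for HCT-116. SGO2, KIF14 and KIF20B followed it under the MHCC-97H label at 0.742, 0.772 and 0.796 CPM per kb. Under the MDA-MB-231 label CDC25C, KIF20B and SGO2 followed at 3.08, 3.12 and 3.62 CPM per kb. Under the HCT-116 label KIF20B, CDC25C and SGO2 followed at 2.93, 3.05 and 3.59 CPM per kb, and neighbours this close were not tested against each other.

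**Figure D1:**
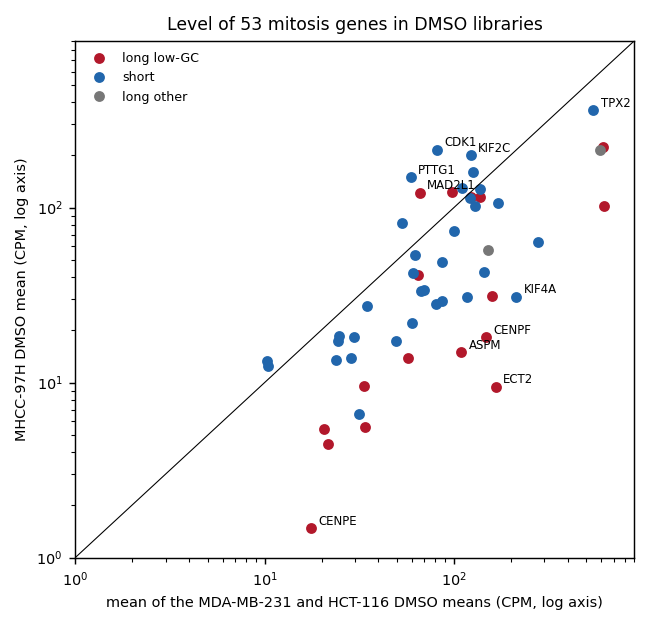
Mean level of each of the 53 genes in DMSO libraries in TMM-scaled CPM, on log axes, with the MHCC-97H label on the vertical axis and the mean of the MDA-MB-231 and HCT-116 group means on the horizontal axis (n = 3 libraries per group). Colours give the length and GC class. Points below the line are lower under the MHCC-97H label, ECT2 the farthest with a log2 difference of -4.14, and CDK1 and PTTG1 lie above it.

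Under the MHCC-97H label, H3B-8800 raised 27 of the 53 mitotic genes and lowered 3, and 23 were not called (edgeR quasi-likelihood test, adjusted p under 0.05). Over all genes 27.6% were called, 12.9% higher and 14.7% lower. The median log2 fold change of the 53 genes was 0.33, against -0.06 over all genes tested. The cytokinesis, condensin, kinesin and spindle-binding genes held most of the rises, whereas the cyclins, CDK1 and the Aurora kinases were not called. Role ran together with gene length and GC content. The listed mitotic kinases, cyclins and phosphatases are all short by the classes defined below, while most cytokinesis genes are long and low in GC. Among all genes tested, 33.3% of long low-GC genes were called higher, against 4.51% of short genes. Role and class were not told apart. All 3 treated libraries lay above all 3 DMSO libraries for 32 genes and below them for 6, where 19.6% and 28.0% of all genes did so. With library totals as scaling, 34 genes were called higher and 0 lower, where 17.6% of all genes were higher and 2.43% lower (2501 and 346 genes, in place of 1831 and 2091 with TMM).

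The summed level of the 53 genes lay between 4219 and 4326 CPM in treated MHCC-97H libraries and between 3594 and 3800 CPM in DMSO libraries. In bulk RNA a change in the share of cells in mitosis and a change in RNA per cell cannot be told apart.

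All 4 cytokinesis genes rose. ECT2 had 21.0, 18.7 and 20.2 CPM in treated libraries, against 10.6, 8.45 and 9.27 CPM in DMSO libraries. The groups were far apart, with a log2 fold change of 1.08 (SE 0.13, edgeR adjusted p = 0.00053), the smallest adjusted p of the 53 genes. PRC1, which bundles the antiparallel microtubules of the central spindle, had 156, 158 and 151 CPM in treated libraries, against 125, 104 and 117 CPM in DMSO libraries, a log2 fold change of 0.42 (SE 0.07, edgeR adjusted p = 0.0020). ANLN, an actin-binding scaffold of the contractile ring, rose by 0.50 and RACGAP1, the partner of KIF23 in centralspindlin, by 0.61 on the log2 scale. RACGAP1 varied among its DMSO libraries, from 74.4 to 128 CPM, and its treated libraries spanned 151 to 160 CPM. Its call was lost when only the libraries compared were fitted (0.67, edgeR adjusted p = 0.063).

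Of the 10 kinesins, 7 rose and 1 fell. KIF20A, which carries the chromosomal passenger complex to the central spindle, had 49.9, 57.2 and 56.5 CPM in treated libraries, against 42.5, 43.7 and 42.3 CPM in DMSO libraries (log2 fold change 0.35, SE 0.05, edgeR adjusted p = 0.0016). KIF23, the motor subunit of centralspindlin, had 22.4, 20.5 and 20.1 CPM in treated libraries, against 16.7, 12.6 and 12.3 CPM in DMSO libraries (log2 fold change 0.60, SE 0.12, edgeR adjusted p = 0.0034). In both genes every treated library exceeded every DMSO library. KIF11 and KIF15, which push the spindle poles apart, rose by 0.63 and 0.69 on the log2 scale. KIF18A, which dampens chromosome oscillations at the metaphase plate, rose by 0.67, KIF4A, a chromokinesin, by 0.37 and KIF14, a motor of late cytokinesis, by 1.03. KIF14 was low, at 11.5 ± 0.813 CPM in treated libraries and 5.61 ± 1.79 CPM in DMSO libraries (SD, n = 3 each), and its adjusted p of 0.044 from edgeR became 0.16 with limma voom.

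KIF2C was the kinesin that fell, to 171, 173 and 176 CPM in treated libraries, against 188, 206 and 203 CPM in DMSO libraries. The groups were separate but close, with a log2 fold change of -0.20 (SE 0.05, edgeR adjusted p = 0.0070), and the call was lost with library totals as scaling (-0.06, adjusted p = 0.36). KIF18B and KIF20B were not called, at log2 fold changes of -0.06 and 0.15.

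Of the 6 condensin and topoisomerase genes, 4 rose. SMC4 and SMC2 form the ATPase core shared by both condensins. SMC4 had 52.5, 55.2 and 49.3 CPM in treated libraries, against 33.8, 32.0 and 28.4 CPM in DMSO libraries (log2 fold change 0.74, SE 0.13, edgeR adjusted p = 0.0025). SMC2 had 67.1, 68.6 and 62.9 CPM in treated libraries, against 43.2, 38.0 and 43.0 CPM in DMSO libraries (log2 fold change 0.68, SE 0.13, edgeR adjusted p = 0.0035). For both, the lowest treated library was well above the highest DMSO library. NCAPG, a HEAT-repeat subunit of condensin I, had 42.7, 47.8 and 47.1 CPM in treated libraries, against 34.6, 33.5 and 33.6 CPM in DMSO libraries (log2 fold change 0.44, SE 0.08, edgeR adjusted p = 0.0022). NCAPD2 and NCAPH, the other condensin I subunits, were not called, at 0.05 and 0.10, but were with library totals as scaling, at 0.19 and 0.23.

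TOP2A, the topoisomerase that untangles sister chromatids, had the largest fold change of the 53 genes and is given in full for that reason, after its values were seen. It had 239, 244 and 251 CPM in treated libraries, against 131, 81.4 and 94.3 CPM in DMSO libraries. The treated libraries were tight and the DMSO libraries spread, and the log2 fold change was 1.26 (SE 0.25, edgeR adjusted p = 0.0040). This error draws on the spread in all 18 libraries, those of the HCT-116 label included.

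Of the 7 genes of spindle assembly and microtubule binding, 5 rose. SPAG5, or astrin, which stabilises kinetochore attachments, had 78.0, 88.2 and 81.5 CPM in treated libraries, against 63.1, 50.7 and 58.9 CPM in DMSO libraries (log2 fold change 0.52, SE 0.08, edgeR adjusted p = 0.0011). NUSAP1, which bundles microtubules near chromosomes, had 74.0, 74.5 and 71.4 CPM in treated libraries, against 51.5, 48.3 and 46.7 CPM in DMSO libraries (log2 fold change 0.59, SE 0.09, edgeR adjusted p = 0.0013). Neither gene's groups overlapped. CKAP2, a microtubule-associated protein, rose by 0.57, DLGAP5, a spindle-stabilising protein, by 0.33 and TPX2, the activator of Aurora A on the spindle, by 0.16 on the log2 scale. ASPM and HMMR, a spindle protein also known as the hyaluronan receptor, were not called, at 0.48 and 0.24. Both were called higher with library totals as scaling (edgeR adjusted p = 0.040 and 0.022) and with the replicate number as a block (edgeR adjusted p = 0.0015 and 0.035). ASPM was also called higher by DESeq2 (adjusted p = 0.029) and when only the libraries compared were fitted (edgeR adjusted p = 0.0041). Neither was called by limma voom (adjusted p = 0.24 and 0.083). Once the trend of each library on GC content and length was taken out, ASPM stood at 0.015 and HMMR at 0.018 (edgeR adjusted p = 0.98 for both).

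The checkpoint and kinetochore genes were mixed. Of 5 checkpoint genes, BUB1B rose by 0.56, TTK, the kinase that starts checkpoint signalling, by 0.55 and BUB1 by 0.39. BUB3 (0.17) and MAD2L1 (-0.01) were not called, although BUB3 was called higher by DESeq2 (adjusted p = 0.013) and limma voom (adjusted p = 0.049). Of 6 centromere and kinetochore genes, CENPF rose by 0.86, a call lost with limma voom (adjusted p = 0.051), and NDC80, the microtubule-binding subunit of its complex, by 0.31. NUF2 and SPC25, which belong to the same complex as NDC80, were not called at 0.18 and -0.07, nor were CENPE (0.79, SE 0.32, edgeR adjusted p = 0.076) and the centromeric histone CENPA (0.10). CENPE was called higher by DESeq2 (adjusted p = 0.028), and NUF2 with library totals as scaling (0.32, edgeR adjusted p = 0.021). With the trend of each library on GC content and length taken out, CENPE (0.385, edgeR adjusted p = 0.25) and NUF2 (-0.024, edgeR adjusted p = 0.95) were not called. BUB3 was then called lower (-0.175, edgeR adjusted p = 0.03), and MAD2L1 moved to -0.30, at the threshold but not called (edgeR adjusted p = 0.05).

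The regulators of mitotic entry and exit included 2 of the 3 falls. PLK1, a kinase acting at centrosomes, kinetochores and the midbody, had 88.1, 91.2 and 93.9 CPM in treated libraries, against 106, 106 and 108 CPM in DMSO libraries (log2 fold change -0.23, SE 0.08, edgeR adjusted p = 0.036). CDC20, the activator of the anaphase-promoting complex, had 96.2, 97.6 and 99.0 CPM in treated libraries, against 110, 111 and 117 CPM in DMSO libraries (log2 fold change -0.21, SE 0.06, edgeR adjusted p = 0.028). Both groups were tight and did not overlap. The direction of CDC20 turned, to 0.06 (adjusted p = 0.43), once the trend of each library on GC content and length was taken out, and the PLK1 call was also lost then (-0.04, adjusted p = 0.68). With library totals as scaling CDC20 stood at -0.07 and PLK1 at -0.10, and neither was called.

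PLK4, which starts centriole duplication, and SGO2, a protector of centromeric cohesion, rose by 0.48 and 0.59, calls that limma voom did not make (adjusted p = 0.056 and 0.11). The other regulators were not called, but with the replicate number as a block CCNB1 (edgeR adjusted p = 0.030), PTTG1 (0.022) and UBE2C (0.040) were called lower and SGO1 (0.030) higher, and AURKA was called higher when only the libraries compared were fitted (edgeR adjusted p = 0.0064). CDK1 had a log2 fold change of 0.03 (95% interval -0.13 to 0.20), CCNA2 of 0.01 (-0.10 to 0.11) and CCNB2 of -0.01 (-0.10 to 0.08). These intervals hold only small changes, but they apply to TMM scaling, and other settings put some estimates outside them. Library totals gave 0.164, 0.139 and 0.125 in the same order, and trend removal gave -0.18, -0.155 and -0.073, none called. With block and trend removal together CCNA2 was called lower (-0.154, edgeR adjusted p = 0.046). CCNB1 stood at -0.16 (-0.28 to -0.03), AURKB at -0.27 (-0.51 to -0.04), AURKA at 0.28 (-0.03 to 0.60), PTTG1 at -0.16 (-0.29 to -0.03) and UBE2C at -0.11 (-0.20 to -0.02). SGO1, CDC25B and CDC25C had 0.26, -0.19 and -0.04. Scaled by library totals, CCNB1 stood at -0.02, PTTG1 at -0.03, UBE2C at 0.02 and AURKB at -0.14. None of these was then called (edgeR adjusted p 0.45 to 0.87), but SGO1 was called higher (0.39, edgeR adjusted p = 0.022). After each library's GC and length trend was taken out, UBE2C (0.06) and AURKB (-0.03) were not called. CCNB1 (-0.23) and PTTG1 (-0.18) were not called then, but were called lower with the block added (edgeR adjusted p = 0.014 and 0.030).

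**Figure D2:**
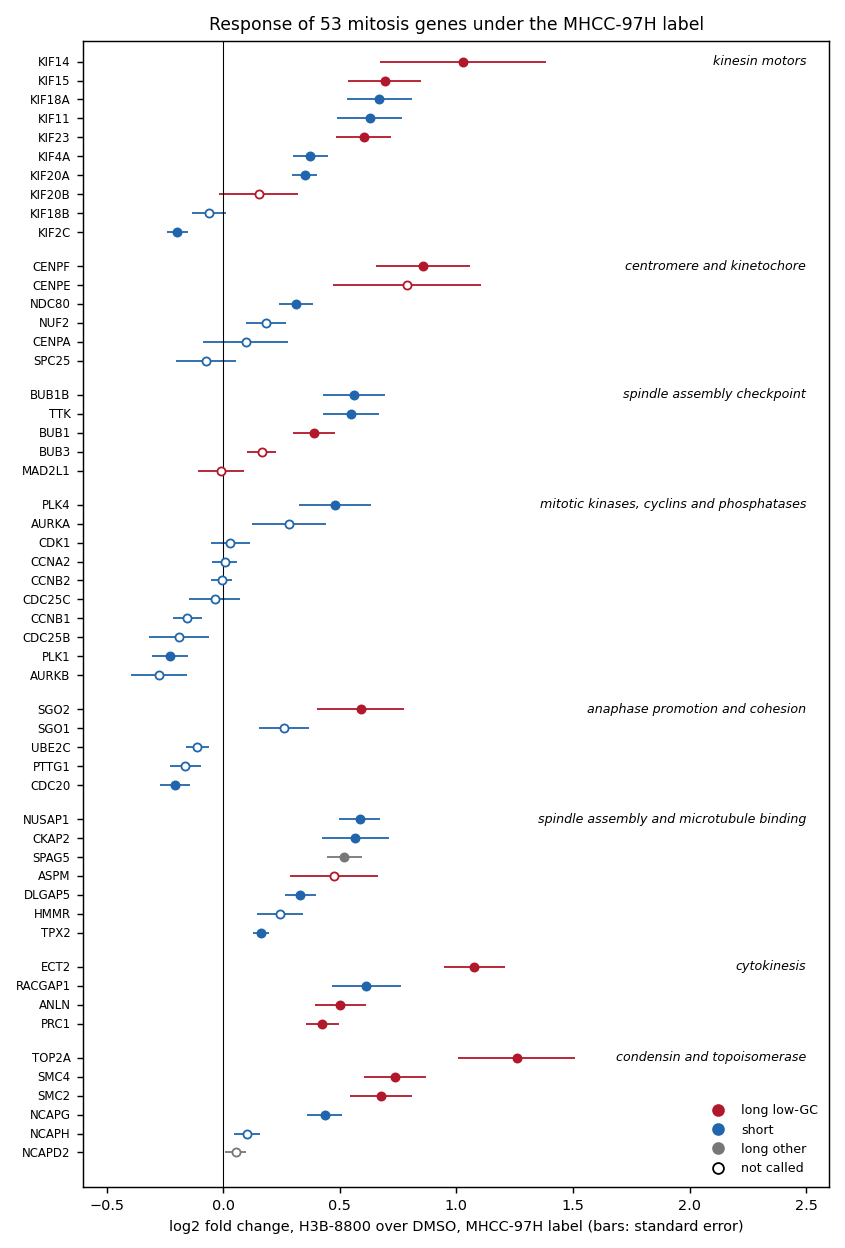
Log2 fold change of H3B-8800 over DMSO under the MHCC-97H label for each of the 53 genes, grouped by role, with the standard error of the edgeR fit over 18 libraries (3 treated and 3 DMSO libraries compared). Filled points were called at an adjusted p under 0.05 and colours give the length and GC class. TOP2A at 1.26 and ECT2 at 1.08 lie farthest right, while KIF2C, PLK1 and CDC20 are the filled points left of 0 and CDC20 is not on that side once the GC and length trend is removed.

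The genes were also divided by length and base composition, using medians over all genes tested. Long low-GC genes have at least 4932 bp of exon and under 49.71% GC, and short genes have less exon than that. There were 17 long low-GC genes, 34 short genes and 2 others, SPAG5 and NCAPD2, that are long but not low in GC. Nearest the length cut were NCAPG with 4921 bp (short) and KIF15 with 5285 bp (long low-GC). Nearest the GC cut were PRC1 with 47.64% (low) and SPAG5 with 49.9% (not low) among long genes, and CENPA with 49.41% (low) and KIF2C with 49.76% (not low) among short genes.

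Of the 17 long low-GC genes, 12 rose and 0 fell under the MHCC-97H label, with a median log2 fold change of 0.60. Among all 4197 long low-GC genes tested, 33.3% were called higher and 2.69% lower, with a median of 0.28. Of the 34 short genes, 14 rose and 3 fell, with a median of 0.17, where 4.51% of all short genes were higher, 19.7% were lower and the median was -0.16. Of the 2 others SPAG5 rose and NCAPD2 was not called, where 3.74% of such genes were higher and 19.9% lower. The short genes parted further by GC content, a split made after the values were seen. All 14 rises were among the 27 short genes of low GC content, where 10.3% of such genes were higher and 9.57% lower, and all 3 falls were among the 7 others, where 0.524% were higher and 26.7% lower. This division turns on genes at the cut, since KIF2C, a fall, lies just above it and KIF20A, a rise with 49.16% GC, just below it.

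Across the 53 genes, the MHCC-97H log2 fold change ran with GC content at a Spearman correlation of -0.59 and with exonic length at 0.64. Across all 14223 annotated genes tested the values were -0.53 and 0.36. With the trend of each library taken out, the 53 genes had -0.16 and 0.41. Under the other labels the signs were opposite. The 53 genes had 0.77 and -0.53 under MDA-MB-231, against 0.32 and -0.16 for all genes. Under HCT-116 they had 0.39 and -0.53, against 0.18 and -0.12. These are descriptions across genes that share libraries and are not independent.

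**Figure D3:**
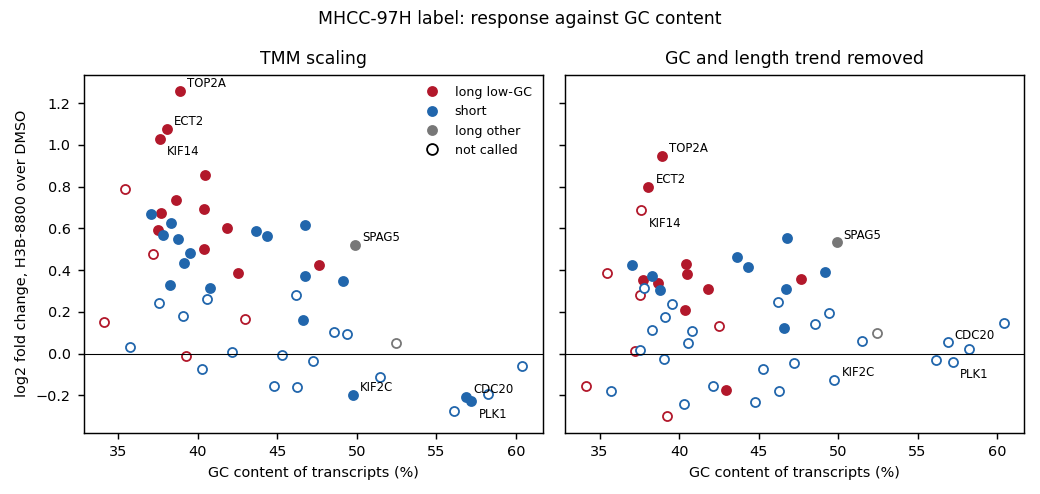
Log2 fold change of H3B-8800 over DMSO under the MHCC-97H label for each of the 53 genes (vertical axis) against the GC content of its transcripts in percent (horizontal axis), with TMM scaling on the left and with the trend of each library on GC content and length taken out on the right. Filled points were called. On the left, low-GC genes lie highest, and on the right 19 genes are called higher, ECT2 and TOP2A among them, while CDC20 is above 0.

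Taking out the trend of each library on GC content and exon length, fitted over all genes, left 19 of the 53 genes higher and 1 lower, where 6.44% and 8.21% of all genes were called. All 19 were among the 27. The rises no longer called were those of NCAPG, DLGAP5, NDC80, BUB1, CKAP2, SGO2, PLK4 and KIF14, and 0 of the 3 falls were still called. The median of the 53 genes was then 0.15, against -0.03 over all genes. ECT2 stood at 0.80 (edgeR adjusted p = 9.2e-05), TOP2A at 0.95 (edgeR adjusted p = 0.0036), SPAG5 at 0.53 and NUSAP1 at 0.46. The gene called lower was BUB3, at -0.17 (edgeR adjusted p = 0.030), which had stood at 0.17 before. Of the long low-GC genes 9 were then higher and 1 lower, and of the short genes 9 were higher and 0 lower. Among all long low-GC genes 15.3% were then higher and 11.2% lower, and among all short genes 2.81% and 5.84%.

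The same classes moved library by library. The 17 long low-GC genes summed to between 1346 and 1402 CPM in treated MHCC-97H libraries, against 906.7 to 1053 CPM in DMSO libraries. The 34 short genes summed to between 2521 and 2622 CPM in treated libraries, against 2398 to 2470 CPM in DMSO libraries. Measured as the median log2 deviation from the mean of the label's 6 libraries, the 17 genes were at 0.25 to 0.36 in treated libraries and at -0.36 to -0.10 in DMSO libraries. All long low-GC genes tested were at 0.12 to 0.17 in treated libraries and at -0.17 to -0.07 in DMSO libraries, so the class moved the same way with a smaller size.

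Under the MDA-MB-231 label, 0 of the 53 genes were called by edgeR, DESeq2 or limma voom, where edgeR called 0.0351% of all genes, 0.0211% higher and 0.0141% lower. By unadjusted p under 0.05 there were 8, of which 3 were higher, where 7.19% of all genes had such a p and 3.59% were higher with it. The 2 with the smallest p were DLGAP5 and SMC2. DLGAP5 had 59.7, 58.3 and 55.3 CPM in treated libraries, against 67.6, 66.9 and 64.8 CPM in DMSO libraries (log2 fold change -0.20, SE 0.07, edgeR adjusted p = 0.56). Its groups did not overlap. SMC2 had 48.5, 59.7 and 44.3 CPM in treated libraries, against 66.1, 74.3 and 57.2 CPM in DMSO libraries, which overlap (log2 fold change -0.37, SE 0.13, edgeR adjusted p = 0.57).

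The long low-GC genes had a median log2 fold change of -0.15 under this label and the short genes one of 0.04, where all genes of these classes had -0.10 and 0.01. Treated libraries lay above all DMSO libraries for 10 genes, among them PLK1, CDC20 and UBE2C, and below them for 9, among them ANLN, CENPF and TOP2A, while 8.67% and 9.86% of all genes did so. TOP2A had 561, 511 and 450 CPM in treated libraries, against 685, 645 and 571 CPM in DMSO libraries, a log2 fold change of -0.32 with a 95% interval of -0.80 to 0.16. ECT2 had 164, 150 and 140 CPM in treated libraries, against 185, 157 and 163 CPM in DMSO libraries, a log2 fold change of -0.15 (95% interval -0.39 to 0.08).

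Under the HCT-116 label, 0 of the 53 genes were called by edgeR, DESeq2 or limma voom, where edgeR called 0.0351% of all genes, 0.0281% higher and 0.00703% lower, and 1 had an unadjusted p under 0.05, as did 4.6% of all genes. That gene was CDK1, with 74.7, 71.0 and 72.5 CPM in treated libraries, against 94.3, 71.6 and 83.6 CPM in DMSO libraries (log2 fold change -0.19, SE 0.08, edgeR adjusted p = 1.0). TPX2 followed, with 585, 551 and 587 CPM in treated libraries, against 540, 539 and 557 CPM in DMSO libraries (log2 fold change 0.08, SE 0.04, edgeR adjusted p = 1.0). Both pairs of groups overlapped. Treated libraries lay above all DMSO libraries for 2 genes and below them for 0, where 3.71% and 3.29% of all genes did so.

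The libraries numbered 2 decided much of the spread under this label. TOP2A had 668, 333 and 680 CPM in treated libraries, against 722, 427 and 701 CPM in DMSO libraries, and the low value in each group was library 2. The 17 long low-GC genes summed to 1785 CPM in treated library 2 and to 2627 and 2681 CPM in the other treated libraries. The matching sums were 2056 CPM in DMSO library 2 and 2708 and 2684 CPM in the other DMSO libraries. Over all long low-GC genes, the median deviation was -0.22 in treated library 2 and -0.11 in DMSO library 2, against 0.09 to 0.11 in the other 4 libraries. Without both libraries numbered 2, 0 of the 53 genes were still called under this label, and under the MHCC-97H label 30 were called higher and 5 lower. AURKA and CENPA had single DMSO libraries apart from the rest, AURKA with 86.8 CPM against 132 and 130 CPM and CENPA with 16.9 CPM against 32.2 and 30.7 CPM under the HCT-116 label.

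**Figure D4:**
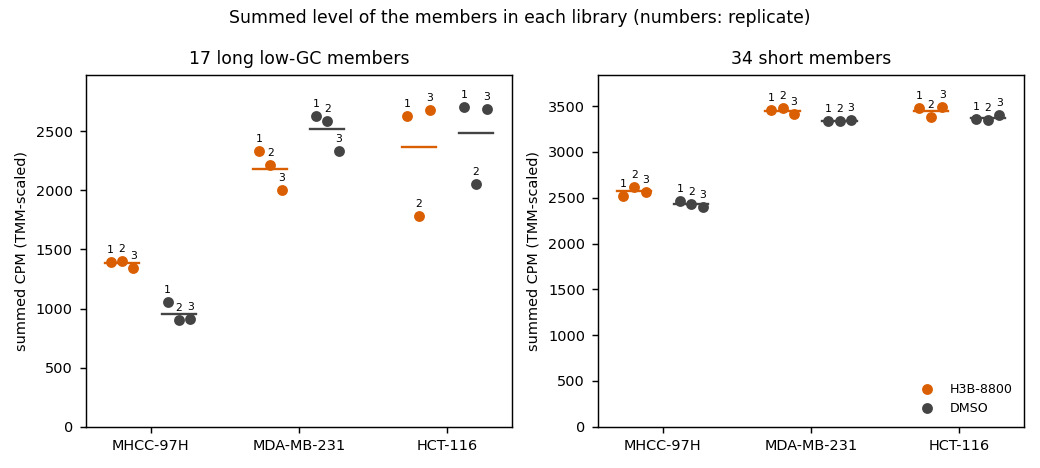
Summed TMM-scaled CPM of the 17 long low-GC genes (left) and the 34 short genes (right) in each of the 18 libraries, with H3B-8800 left of DMSO under each line label, the replicate number at each point and the group mean as a line. Treated MHCC-97H libraries lie above DMSO libraries in both panels, and both HCT-116 libraries numbered 2 lie low in the left panel at 1785 and 2056 CPM.

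**Figure D5:**
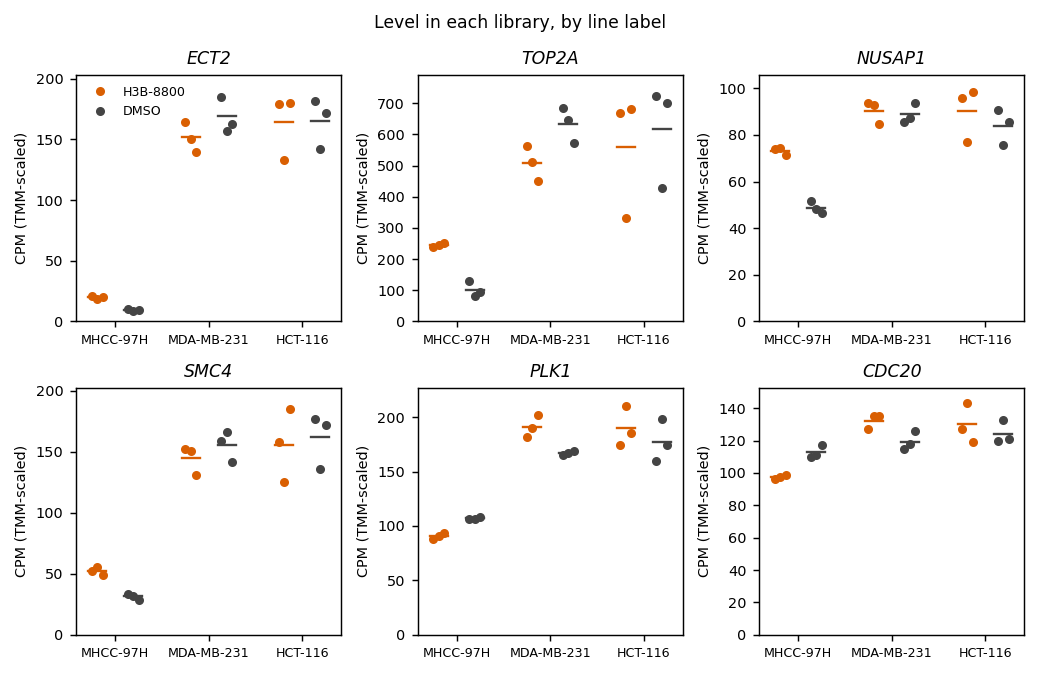
TMM-scaled CPM of ECT2, TOP2A, NUSAP1, SMC4, PLK1 and CDC20 in each library, with H3B-8800 left of DMSO under each line label and lines at the group means (n = 3). Under the MHCC-97H label the first 4 genes are higher and PLK1 and CDC20 lower in treated libraries with TMM scaling, CDC20 by a difference that turns once the GC and length trend is removed, and no such separation is seen under the HCT-116 label.

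Whether the response differed between labels was tested directly, as the MHCC-97H log2 fold change minus the mean of the other 2 labels' fold changes. The difference was called for 33 of the 53 genes, 28 higher and 5 lower (edgeR, adjusted p under 0.05), where 25.4% of all genes were called, 12.2% higher and 13.2% lower. ECT2 had a difference of 1.16 (SE 0.16, edgeR adjusted p = 0.0012), NCAPG of 0.55 (SE 0.09, edgeR adjusted p = 0.0027) and SMC2 of 0.93 (SE 0.16, edgeR adjusted p = 0.0030). DLGAP5 had 0.47 (SE 0.08, edgeR adjusted p = 0.0030) and SPAG5 had 0.52 (SE 0.09, edgeR adjusted p = 0.0030). The 5 lower genes, named after their values were seen, were KIF2C, PLK1, CDC20, UBE2C and AURKB, which are short and had differences between -0.42 and -0.18. With the trend on GC and length removed, 15 genes were called higher and 3 lower, where 12.8% of all genes were called, 5.33% higher and 7.45% lower, and NCAPG (0.21, adjusted p = 0.077) and DLGAP5 (0.19, adjusted p = 0.052) were not. With library totals as scaling 32 were called higher and 0 lower, where 19.8% of all genes were called, 17.3% higher and 2.55% lower, and the median difference over all genes moved to 0.08, from -0.06 with TMM.

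The mitotic machinery also contains genes outside the 53, and 111 of these were grouped into 8 lists and fitted in the same model. These lists too were chosen with earlier results of these data known. Under the MHCC-97H label 37 of the 111 were called higher and 16 lower, with a median of 0.10, where 12.9% of all genes were higher and 14.7% lower. Once the trend was taken out 27 were higher and 11 lower, where 6.44% and 8.21% of all genes were. The counts of single lists that follow are read against the same 12.9% and 14.7%, which are not matched to a list for length and GC content. Among all long low-GC genes 33.3% were higher and 2.69% lower, and among all short genes 4.51% and 19.7%. The lists were not split by class. Unless trend removal is named, counts and values of the lists are those with TMM scaling alone. For MDA-MB-231 and for HCT-116, 0 were called.

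Cohesin and its regulators, which hold sister chromatids together, had 8 of 14 genes higher and 0 lower. PDS5A, which regulates cohesin on chromatin, averaged 87.8 ± 3.57 CPM in treated libraries and 38.3 ± 11.4 CPM in DMSO libraries (SD, n = 3 each; log2 fold change 1.20, SE 0.20, edgeR adjusted p = 0.0020). RAD21, the kleisin subunit that separase cuts, rose by 0.40 (edgeR adjusted p = 0.0021), a call lost with the trend removed (0.11, adjusted p = 0.080). Centrosome and other spindle genes had 11 of 16 higher and 3 lower, with CLASP1, a microtubule plus-end protein, at 1.01 (edgeR adjusted p = 0.0017) and KIF2A, a depolymerising kinesin related to KIF2C, at 0.88 (edgeR adjusted p = 0.0021). Of the 6 genes of condensin II and other chromosome structure, 4 were higher and 2 lower, with TOP2B at 0.59 and the condensin II subunit NCAPD3 at 0.37.

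The anaphase-promoting complex had 4 of 17 genes higher and 6 lower, and 1 higher and 4 lower with the trend removed. Its subunit CDC16 was at 0.44 (edgeR adjusted p = 0.0020) and UBE2S, which extends its ubiquitin chains, at -0.35 (edgeR adjusted p = 0.0027), a call lost with the trend removed (-0.09, adjusted p = 0.12). Entry regulators had 1 of 13 higher and 3 lower, with the CDK-binding proteins CKS1B and CKS2 at -0.27 and -0.25. Other kinetochore and centromere genes had 3 of 27 higher and 1 lower, with KNTC1, a part of the complex that recruits dynein, at 0.73 and MAD1L1, the partner of MAD2L1, at -0.34. Of 14 transcription factors of the mitotic genes, 5 were higher and 1 lower, with the MuvB subunit LIN54 at 0.73 and the pocket protein RBL2 at 0.49. Among 4 genes listed with the chromosomal passenger complex 1 was higher, CDCA2 at 0.37, which is not a subunit of that complex. The subunit BIRC5, or survivin, stood at -0.43 (SE 0.17, edgeR adjusted p = 0.071).

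Exons of 15 of the 53 genes overlap those of another gene in the table, and the strand setting of the counting is not given in the sources used here. SPAG5, KIF20A, NCAPG, SMC4, ANLN, RACGAP1, KIF18A, KIF4A, BUB1B, SGO2 and PLK1 are the called genes among them, so some of their reads may belong to a neighbour. Near-identical copies were low, with KIF4B at no more than 0.424 CPM and PTTG2 at no more than 0.116 CPM in any library.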

How the data were processed

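Members and gene lists were chosen with earlier results of these data known. The authors deposited whole-number counts per Ensembl gene, without normalization, for all 18 libraries. Per the submitters' processing notes, fastp, HISAT2 and the build GRCh38 were used; versions, counting tool, annotation and strand setting were not given in the sources used here. Groups came from the labels. Names, lengths and GC content came from GENCODE release 29, which held 20224 of 20263 genes.

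The model was fitted with edgeR 4.0.16 under R 4.3.3, using TMM scaling, filterByExpr by group, 1 mean per group over 18 libraries and the robust quasi-likelihood test, adjusted by Benjamini-Hochberg over 14234 genes and called under 0.05. Standard errors were derived from the test statistic of the fit. Intervals called 95% use a normal approximation with these errors, and are somewhat narrower than the quasi-likelihood test implies. The procedure was tested on simulated data. Totals of 28232315 to 41488278 counts set the counting precision. Named genes were every called member under MHCC-97H (values per library for up to 9 each way by adjusted p), the 2 smallest p-values under each other label, 5 for the difference of effects, 4 each way for DMSO levels, the 4 highest and 4 lowest per kilobase, and 2 per other list.

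Alternatives were other scalings, filters of none or 50 counts in 3 libraries, a replicate block, removal of a per-library GC and length trend (natural splines, 5 degrees of freedom), both together, limma voom (limma 3.58.1), DESeq2 1.42.0, only the libraries compared, other class cuts, and leaving out each library. Leaving out both HCT-116 libraries numbered 2 and splitting short genes by GC content were added after seeing the data.

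Deviations from group means of same-numbered treated and DMSO libraries were correlated across genes to check pairing. Over 9233 genes averaging at least 10 CPM the values for replicates 1, 2 and 3 were -0.04, 0.13 and 0.0017 under the MHCC-97H label, 0.22, 0.18 and -0.0006 under MDA-MB-231, and 0.14, 0.40 and 0.11 under HCT-116. Over all 14234 genes they were lower than 0.1 except for HCT-116 replicate 2, at 0.13. Libraries of unlike number, over the 9233 genes, ran from -0.14 to 0.13 under MHCC-97H, -0.27 to 0.12 under MDA-MB-231 and -0.34 to 0.26 under HCT-116. These ranges take in several of the same-numbered values. No label says what the numbers stand for, so the pairing is uncertain and the main fits were unpaired.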

Additional observations from a re-analysis of the deposited data

Results flagged for a closer look

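The response to H3B-8800 differed between the MHCC-97H label and the mean of the other 2 labels by a test of the difference itself, which was called for 33 of the 53 genes, where 25.4% of all genes were called. Once each library's trend on GC content and length was taken out, it was called for 18, where 12.8% of all genes were. The 5 with the smallest adjusted p had log2 differences of 1.16 (ECT2), 0.548 (NCAPG), 0.934 (SMC2), 0.47 (DLGAP5) and 0.523 (SPAG5). NCAPG and DLGAP5 were not called with the trend removed.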

How the results depend on the processing

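Under the MHCC-97H label 16 of the 53 genes were called in every alternative run, ECT2, TOP2A, SMC2, SMC4, KIF11, KIF20A, NUSAP1, PRC1, SPAG5 and TPX2 among them, and 0 of the 3 lower genes were. The count of lower genes, 3, was 1 with relative log expression or upper-quartile scaling, 0 with library totals, 1 with the GC and length trend removed, 6 with the replicate block, 5 with the block and trend removal together and 5 without both HCT-116 libraries numbered 2. The replicate block gave 32 higher genes and, with the trend removed, 20. For the difference of effects, 33 called (28 higher, 5 lower) became 18 (15 and 3) with the trend removed, 17 higher with block and trend removal together, and 3 lower with relative log expression, upper-quartile or no filter and 0 lower with library totals. The 10 genes higher in DMSO under the MHCC-97H label were 5 with library totals. With class cuts at the medians of the 53 genes, 8 short genes were higher instead of 14. Among genes called before or after the change, direction turned for BUB3 (-0.175 with the trend removed, -0.174 with the block too), CDC20 (0.055 in both) and CCNA2 (-0.154 with block and trend removal). With the trend alone removed it also turned for 7 genes that neither fit called, CCNA2, CDK1, KIF18B, KIF20B, UBE2C, NUF2 and CDC25B. The cause of these changes was not tested.

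Leaving out each library in turn gave 25 to 34 called under the MHCC-97H label (23 to 30 higher, 1 to 4 lower), 25 to 35 for the difference of effects (22 to 29 higher, 3 to 6 lower), 48 to 51 for DMSO levels (9 to 10 higher, 39 to 41 lower), and 0 under the other labels. By edgeR, PLK1 (adjusted p 0.053 to 0.11) and PLK4 (0.051 to 0.092) lost their calls without any one of the 6 MHCC-97H libraries, CDC20 (0.053 to 0.11) without any but DMSO 1, SGO2 (0.056 to 0.11) without any but treated 3, and CKAP2 (0.053) without treated 2. KIF14 (0.052 to 0.15) lost its call without any MHCC-97H library but DMSO 1, or any MDA-MB-231 library but DMSO 3. The replicate block changed no call under the MDA-MB-231 or HCT-116 label, with 0 called. The difference of effects uses all libraries, so fitting only the libraries compared was not run for it. KIF14 and CENPE, among the lowest in CPM, had standard errors of 0.36 and 0.32 on the log2 scale, but depth alone did not set precision. SGO2 and KIF20B, about as low as KIF14 in MHCC-97H DMSO libraries, had 0.19 and 0.17, and TOP2A, at far higher CPM, had 0.25. Each error comes from the fit over 18 libraries, so that of TOP2A also takes in its spread under the HCT-116 label.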
